A study of Zea mays with 4 samples.

Results

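Pyruvate orthophosphate dikinase (PPDK) is encoded in the maize (Zea mays) kernel data by pdk1 (GRMZM2G306345) and pdk2 (GRMZM2G097457), taken by their gene IDs as 2 of the 39625 genes counted. Both were among the 19519 genes that passed the filter on low counts. Transcripts were measured by RNA sequencing of whole kernels collected 14 days after pollination from field-grown plants, in 2 libraries of the zmknl1 mutant and 2 libraries of wild type (WT). The replicates came from different ears. The mutant is labelled after KNL1, which helps attach chromosomes to the spindle at the kinetochore. The labels give no allele or inbred background. The level of the targeted gene was not analysed here and gives no check of the labels. The question for the gene pair was whether its level, and the part each copy supplies, differed between zmknl1 and WT kernels.

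PPDK converts pyruvate, ATP and phosphate into phosphoenolpyruvate (PEP), AMP and pyrophosphate, and the reaction can run either way. In the C4 leaf a chloroplast form made from pdk1 regenerates PEP, the acceptor of carbon dioxide. The same gene also gives a cytosolic form from a promoter inside it, and pdk2 gives a cytosolic form as well. Cytosolic PPDK is abundant in cereal endosperm during filling, where the endosperm transcription factor Opaque2 is known to activate it and where PEP, pyruvate, pyrophosphate and ATP link sucrose breakdown, starch synthesis and amino acid synthesis. RefSeq (Zm-B73-REFERENCE-NAM-5.0) places the genes on chromosome 6 (pdk1) and chromosome 8 (pdk2). Counts per gene do not separate the leaf and cytosolic transcripts of pdk1.

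Libraries held 19704758 and 22725030 gene counts in zmknl1 and 20640600 and 16595289 in WT. WT replicate 2 stood apart: its 10 most abundant genes took 25.3% of gene counts, against 6.74 to 7.77% in the other libraries, and 23.9% of its reads aligned to several places, against 10.9 to 13.5%. The kernels carried endosperm transcripts at high levels, while the leaf gene pep1 had 0 counts in every library. In whole kernels, fewer cells of a type and less RNA per cell cannot be told apart.

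The pdk2 transcript was lower in zmknl1 kernels, while the pdk1 transcript overlapped between the genotypes. Reads of pdk2 numbered 112656 and 168653 in the zmknl1 libraries, against 345543 and 247624 in the WT libraries. As CPM, read counts put on a common library size after TMM scaling, pdk2 measured 4934 and 6736 in zmknl1 kernels and 15178 and 21114 in WT kernels. The groups did not overlap, and the highest zmknl1 library lay well under the lowest WT library. The means were 5835 ± 1274 CPM in zmknl1 and 18146 ± 4197 CPM in WT (SD, n = 2 each), 3.11-fold lower in zmknl1.

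The log2 fold change of pdk2, zmknl1 over WT, was -1.64 ± 0.66 (SE). DESeq2, the tool the submitters named, called pdk2 lower (log2 fold change -1.63 ± 0.43 (SE), 95% interval from -2.48 to -0.79, adjusted p = 0.00849). The edgeR quasi-likelihood test did not (adjusted p = 0.454, unadjusted p = 0.0415). DESeq2 called 1.92% of tested genes lower. edgeR called 0.0205% in either direction and gave 10.2% an unadjusted p under 0.05. In 20.0% of tested genes both zmknl1 values lay under both WT values in CPM, so that separation alone says little. Without zmknl1 replicate 1 the DESeq2 log2 fold change was -1.42 ± 0.65 (SE) with an adjusted p of 0.638, and without zmknl1 replicate 2 it was -1.87 ± 0.65 with an adjusted p of 0.184. The fold thus stayed in the same range while the call was lost; the remaining zmknl1 library was then alone and was assumed to vary like the WT libraries. Without WT replicates 1 and 2 the adjusted p was 0.00118 and 0.0157.

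The other copy behaved differently. Reads of pdk1 numbered 88824 and 70362 in zmknl1 and 58604 and 40263 in WT. On the CPM scale these were 3890.4 and 2810.4 in zmknl1 kernels, against 2574 and 3433 in WT kernels. The groups overlapped, with the highest value in zmknl1 replicate 1 and the lowest in WT replicate 1. The means were 3350.4 ± 764 CPM in zmknl1 and 3004 ± 607 CPM in WT (SD, n = 2 each).

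For pdk1 the log2 fold change was 0.16 ± 0.53 (SE), and neither edgeR (adjusted p = 0.959) nor DESeq2 (adjusted p = 0.972) called it. The 95% interval in DESeq2 ran from -0.68 to 1.01, so neither a fall nor a rise within those bounds is excluded. The sign was not stable: the edgeR value was -0.04 without WT replicate 1 and -0.09 without zmknl1 replicate 1.

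**Figure D1:**
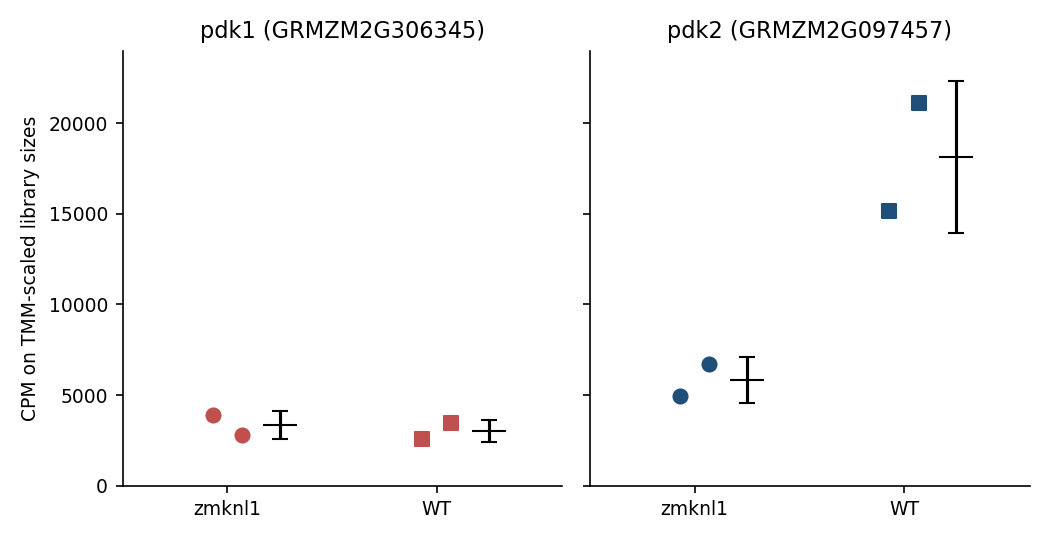
CPM of pdk1 (left) and pdk2 (right) in each library, zmknl1 as circles and WT as squares, with mean and SD (n = 2) as black marks. The zmknl1 and WT values overlap for pdk1, while pdk2 lies at 4934 and 6736 CPM in zmknl1 and at 15178 and 21114 CPM in WT.

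The share of PPDK reads that came from pdk1 was larger in zmknl1. Of the reads of both genes, pdk1 took 44.1% in zmknl1 replicate 1 (95% Wilson interval 43.87 to 44.3%) and 29.4% in zmknl1 replicate 2 (29.26 to 29.62%). In WT it took 14.5% in replicate 1 (14.39 to 14.61%) and 14.0% in replicate 2 (13.86 to 14.11%). The WT libraries gave nearly the same share, although they differed widely elsewhere, and both zmknl1 libraries lay above them and far from each other. The intervals cover counting error only, which is small beside the spread between the zmknl1 libraries.

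The mean share was 36.8 ± 10.4% in zmknl1 and 14.2 ± 0.364% in WT (SD, n = 2 each), a difference of 22.5 percentage points. An exact two-sided permutation test gave p = 0.333, the smallest that 2 libraries against 2 allow. As a log2 ratio of pdk1 to pdk2 reads, the values were -0.34 and -1.26 in zmknl1 and -2.56 and -2.62 in WT, a difference of 1.79 (exact permutation p = 0.333). For each pdk1 read there were 1.27 and 2.40 pdk2 reads in zmknl1, against 5.90 and 6.15 in WT. This ratio is taken within a library, so no scaling of library sizes changes it.

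The shares are of reads and not of transcripts, since transcript lengths were not used here. A difference in length would shift the log2 ratio of the copies by the same amount in every library, but the percentages by unequal amounts. The PPDK copies are closely related, and reads that fit more than 1 place were set aside by the counting, so the split between the copies is uncertain. Reads aligned to several places made up 12.2 and 13.5% in zmknl1 and 10.9 and 23.9% in WT. This measure covers all reads of a library and not only those that fit both PPDK copies. The part of such reads in the shares was not tested.

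**Figure D2:**
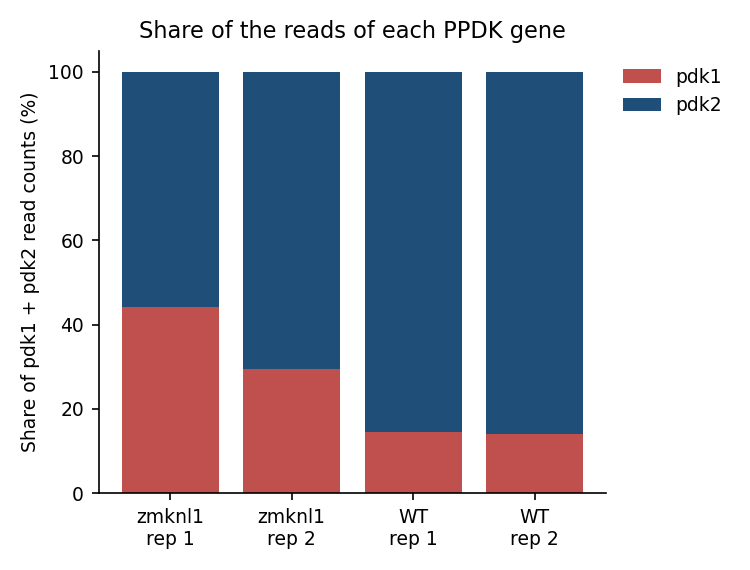
Share of pdk1 and pdk2 in the summed read counts of both genes, in percent, for each library. The pdk1 part takes 44.1 and 29.4% in zmknl1 and 14.5 and 14.0% in WT.

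The sum of the copies does not depend on how counted reads were split between them, although reads that were set aside for fitting both copies are missing from it too. Together they measured 8825 and 9547 CPM in zmknl1 and 17752 and 24547 CPM in WT, and the groups did not overlap. The means were 9186 ± 511 CPM in zmknl1 and 21149.6 ± 4805 CPM in WT (SD, n = 2 each). Fitted as a single gene, the sum had a log2 fold change of -1.20 ± 0.67 (SE), which passed neither test (adjusted p = 0.627 in edgeR and 0.0871 in DESeq2). As a part of all gene counts, the pair took 1.02 and 1.05% in zmknl1, against 1.96 and 1.73% in WT.

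Both genes were among the most abundant of the kernel. By read count pdk2 ranked 5 and 4 in the zmknl1 libraries, and 1 and 8 in the WT libraries. The rank of pdk1 was 7 and 20 in zmknl1, against 24 and 33 in WT. In WT replicate 1 pdk2 was thus the gene with the most reads. Of 93 tested genes with a mean of at least 1000 CPM, 38 (40.9%) lay below both WT libraries and 1 lay above, against 20.0% below and 21.9% above among all tested genes. Their median log2 fold change was -0.62, against 0.007 over all tested genes. Of these 93 genes, 20, pdk2 included, had a fold change as low as that of pdk2 or lower.

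Across the 4 libraries, the profile of pdk2 was most like that of sus1 (GRMZM2G152908), a sucrose synthase gene. Likeness was the root mean square distance between centred log2(CPM + 1) values, over 1430 named genes with a mean of at least 50 CPM. It was 0.06 for sus1, at 527 and 698 CPM in zmknl1 and 1764 and 2250.1 CPM in WT. The next were GRMZM2G005082 (0.08) and GRMZM2G061624 (0.10), whose reference names do not say what they encode. Then came bt2 (GRMZM2G068506), the small subunit of endosperm ADP-glucose pyrophosphorylase, at 0.12. These genes share the libraries with pdk2, and 4 libraries allow many such matches.

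The genes most like pdk1 also overlapped between the genotypes, which follows from picking them by their likeness to it over the same libraries. They were GRMZM2G027392 and GRMZM5G827171, at a distance of 0.05 each, then spr1 (GRMZM2G060296) and ATG3 (GRMZM5G818887), at 0.06 each. ATG3, named for an autophagy enzyme, measured 153 and 103 CPM in zmknl1 and 93.0 and 119 CPM in WT.

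The transcription factor gene o2 (GRMZM2G015534) encodes Opaque2. It measured 348 and 471 CPM in zmknl1 and 502 and 1189.7 CPM in WT, a log2 fold change of -1.05 ± 0.54 (SE) that passed neither test (adjusted p = 0.587 in edgeR and 0.387 in DESeq2). WT replicate 1 lay close to the zmknl1 libraries for o2, but not for pdk2.

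**Figure D3:**
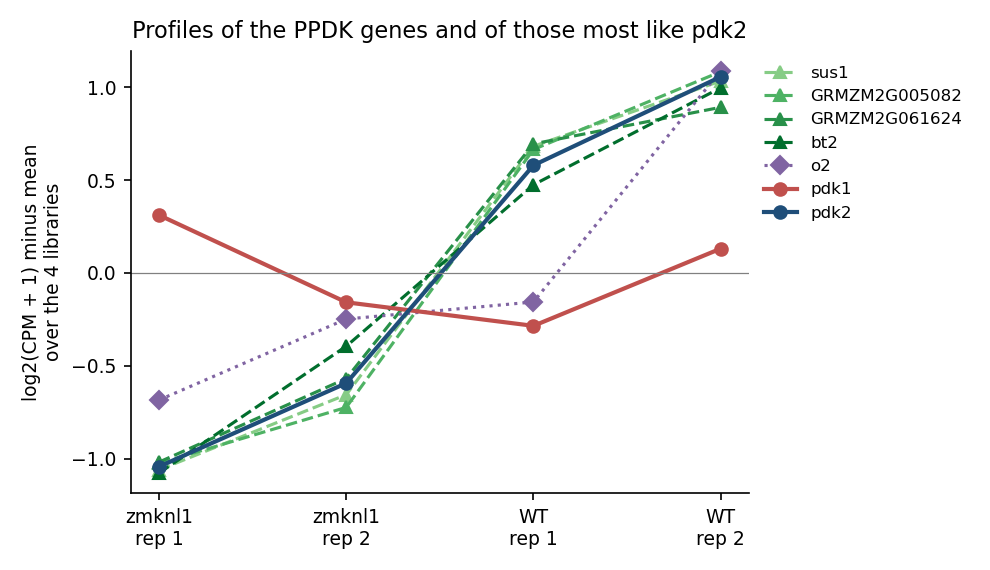
Centred log2(CPM + 1) of pdk1, pdk2, the 4 genes most like pdk2 and o2 in each library; lines only join the points of a gene. The pdk2, sus1 and bt2 points lie below 0 in both zmknl1 libraries and above 0 in both WT libraries, the pdk1 points do neither, and o2 is above 0 in WT replicate 2 only.

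The starch genes of the endosperm gave a reading of PPDK against the filling endosperm within each library. The list held 9 gene IDs, from the sucrose synthase gene sh1 to the branching enzyme gene sbe1. Summed, they reached 11696 and 16806 CPM in zmknl1 and 27949 and 51788 CPM in WT, and their part in the pdk2 difference was not tested. DESeq2 called 3 of the 9 lower, where it called 1.92% of all tested genes lower. Fewer of the 9 were called without WT replicate 2 or either zmknl1 library, fits for which no share over all tested genes was computed. By edgeR 0 were called and 3 had an unadjusted p under 0.05, against 10.2% of all tested genes. For every 100 reads of these genes there were 42.2 and 40.1 pdk2 reads in zmknl1, against 54.3 and 40.8 in WT. The gap was small, with the lower WT library close to both zmknl1 libraries (exact permutation p = 0.667). For pdk1 there were 33.3 and 16.7 reads in zmknl1, against 9.21 and 6.63 in WT, with no overlap (exact permutation p = 0.333).

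That comparison depended on sh1 (GRMZM2G089713), which took 27.6 and 43.9% of the starch gene reads in zmknl1 and 45.3 and 58.2% in WT. Against the other 8 IDs, there were 58.3 and 71.4 pdk2 reads per 100 in zmknl1, against 99.2 and 97.4 in WT. Without sh1 the WT libraries thus gave nearly equal values, and both zmknl1 libraries lay below them. The values of pdk1 were 46.0 and 29.8 in zmknl1 and 16.8 and 15.8 in WT.

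Taken against each starch ID on its own, pdk2 reads were lower in both zmknl1 libraries for 7 of 9 IDs. They overlapped for sh1 and were higher for the starch synthase gene wx1 (GRMZM2G024993), which measured 486 and 563 CPM in zmknl1 and 2114 and 3342 CPM in WT. For pdk1 the ratio was higher in both zmknl1 libraries for 7 of 9 IDs and overlapped for the other 2. These were bt1 and a sbe1 ID, named after their values were seen. The 9 IDs hold sbe1 as 2 IDs. For bt2 the gap was small, with log2 ratios of pdk2 of 1.97 and 1.73 in zmknl1 and 2.04 and 1.99 in WT. The same PPDK reads enter every ratio of a copy, and no share over all tested genes was computed, so the 9 ratios are not separate results. In CPM pdk1 overlapped between the genotypes, while 7 of the 9 starch IDs lay below both WT libraries in zmknl1. The higher pdk1 ratios are thus not a rise of pdk1 itself.

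**Figure D4:**
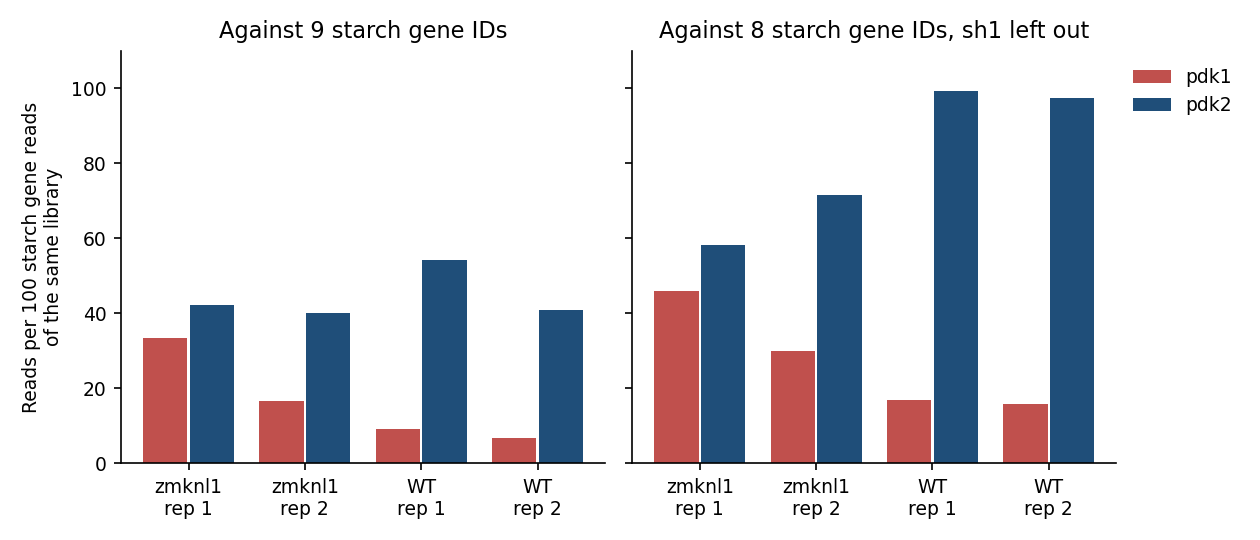
Reads of pdk1 and pdk2 per 100 starch gene reads of the same library, for 9 starch IDs (left) and for 8 without sh1 (right). On the left pdk2 lies between 40.1 and 54.3 in all libraries; on the right it is 58.3 and 71.4 in zmknl1 and 99.2 and 97.4 in WT.

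The enzymes around PEP and pyruvate held 15 listed IDs, of which 12 were tested. Pyruvate kinase was planned for this list, but no ID of it was matched. DESeq2 called 2 lower and 0 higher, where it called 1.92% of all tested genes lower and 1.49% higher. By edgeR 0 members were called and 4 had an unadjusted p under 0.05, against 10.2% of all tested genes. Of the 12, 8 were under both WT libraries in both mutant libraries and 1 was over them, against 20.0 and 21.9% of all tested genes, and their median log2 fold change was -0.56, against 0.007 over all tested genes. The number called lower by DESeq2 rose without WT replicate 2 and fell without zmknl1 replicate 2. The share over all tested genes was not computed for those fits.

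The called members were a malic enzyme and a kinase. The gene me4 (GRMZM2G118770), of the enzymes that turn malate into pyruvate, had 194 and 93 reads in zmknl1 and 4621 and 586 in WT (log2 fold change -4.37 ± 0.80 (SE), adjusted p = 9.32e-08 in DESeq2 and 0.207 in edgeR). PPCK1 (GRMZM2G178074), a kinase of PEP carboxylase, measured 2.06 and 1.44 CPM in zmknl1 and 21.0 and 16.6 CPM in WT (-3.43 ± 0.58, adjusted p = 1.89e-05 in DESeq2 and 0.164 in edgeR).

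Other enzymes of this step were named after their values were seen, for their roles. The gene pdrp1 (GRMZM2G131286), for the protein that switches leaf PPDK on and off by phosphorylation, was barely detected, at 0.350 and 0.399 CPM in zmknl1 and 0.791 and 2.05 CPM in WT. The PEP carboxylase gene pep7 (GRMZM2G069542) measured 179.6 and 195 CPM in zmknl1 and 448 and 328 CPM in WT, and passed neither test (adjusted p = 0.417 in edgeR and 0.202 in DESeq2). The PEP carboxykinase gene pck2 (GRMZM5G870932) measured 126 and 119 CPM in zmknl1 and 293 and 204 CPM in WT (adjusted p = 0.427 and 0.250 in the same order). Enolase makes PEP in glycolysis, and its gene eno1 (GRMZM2G064302) overlapped between genotypes, at 3863 and 6476 CPM in zmknl1 and 2744 and 5309 CPM in WT.

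Glycolytic genes above PEP gave no call with all libraries. Of 13 tested IDs, 0 were called by DESeq2 or edgeR and 0 had an unadjusted edgeR p under 0.05, against 10.2% of all tested genes. In zmknl1 3 lay below both WT libraries, 1 lay above and 9 overlapped, against 20.0% below and 21.9% above among all tested genes. Their median log2 fold change was -0.03. Leaving out WT replicate 2 gave 0.33, and leaving out WT replicate 1 gave -0.31. In the former fit DESeq2 called some IDs higher, but its share over all tested genes was not computed. The glyceraldehyde-3-phosphate dehydrogenase gene gpc4 (GRMZM2G176307) measured 7073 and 10867 CPM in zmknl1 and 3131 and 7349.8 CPM in WT. The aldolase gene ald1 (GRMZM2G057823) measured 2898 and 4610.3 CPM in zmknl1 and 2931 and 5067 CPM in WT.

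The list for the use of pyruvate had 7 tested genes. Besides genes of enzymes that take pyruvate, it held the alcohol dehydrogenase IDs adh1, adh1C and adh2. DESeq2 called 1 of the 7 higher and 0 lower, against 1.49 and 1.92% of all tested genes. By edgeR 0 were called, with 1 at an unadjusted p under 0.05, against 10.2% of all tested genes. In zmknl1 2 lay above both WT libraries, 1 lay below and 4 overlapped, against 21.9% above and 20.0% below among all tested genes. The DESeq2 call was LDH (GRMZM2G128929), named for lactate dehydrogenase, with 35 and 174 reads in zmknl1 and 0 and 1 in WT (adjusted p = 0.00678 in DESeq2 and 0.277 in edgeR). It was not made without WT replicate 1 or without zmknl1 replicate 1, and without zmknl1 replicate 2 DESeq2 gave LDH no adjusted p. The median of the list was 0.21 with all libraries, 1.01 when WT replicate 2 was left out and -0.02 when WT replicate 1 was. Planned aminotransferases and acetolactate synthase had no matched ID in it.

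The list around pyrophosphate held genes of sucrose synthase, which makes the UDP-glucose that pyrophosphate then cleaves, of ADP-glucose pyrophosphorylase, which releases pyrophosphate, and of pyrophosphatases, which break it down. Of 13 tested IDs DESeq2 called 4 lower and 0 higher, against 1.92 and 1.49% of all tested genes. By edgeR 0 were called and 6 had an unadjusted p under 0.05, against 10.2% of all tested genes. In zmknl1 10 lay below both WT libraries and 2 above, against 20.0 and 21.9%, and the median log2 fold change was -0.83, against 0.007 over all tested genes. The called genes were sus1 (log2 fold change -1.71 ± 0.48 (SE), adjusted p = 0.00371 in DESeq2 and 0.305 in edgeR), sh1, bt2 and agpsl1. The last, GRMZM2G163437, an ADP-glucose pyrophosphorylase gene, measured 5.83 and 4.75 CPM in zmknl1 and 32.5 and 13.5 CPM in WT. bt2 measured 1263 and 2027 CPM in zmknl1 and 3702 and 5315 CPM in WT. The genes sh1, sh2 and bt2 are also in the starch list, and sus1 and bt2 are among the genes most like pdk2. These calls are therefore not separate from those given above. Fewer members were called lower by DESeq2 when WT replicate 1 or either zmknl1 library was left out, with no share over all tested genes computed there. The pyrophosphatase genes, named after their values were seen, gave no call and did not share a direction. The proton-pumping pyrophosphatase gene vpp1 (GRMZM2G069095) measured 649 and 589.5 CPM in zmknl1 and 249.8 and 489.8 CPM in WT (log2 fold change 0.74), and vpp2 (GRMZM2G094497) measured 369.5 and 421 CPM in zmknl1 and 314 and 349.8 CPM in WT (0.25). These were the 2 IDs above WT. The gene vpp3 (GRMZM2G421857, -0.48) and the soluble pyrophosphatase gene IPP (GRMZM2G061928, -0.15) lay below both WT libraries, IPP by little, at 275 and 255 CPM in zmknl1 and 276 and 311 CPM in WT.

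**Figure D5:**
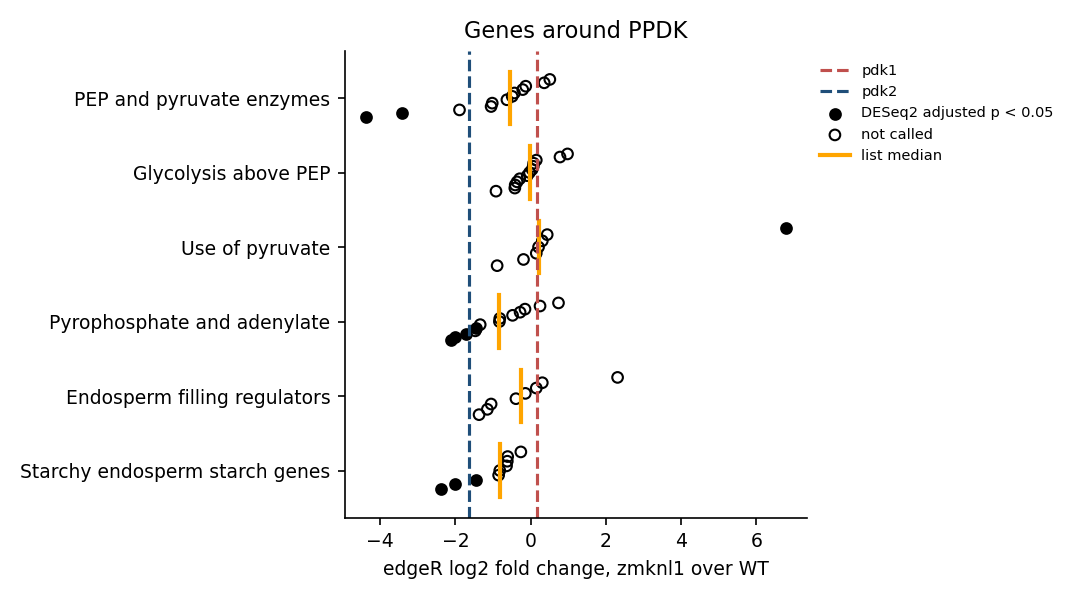
edgeR log2 fold change, zmknl1 over WT, of each tested ID in 6 lists; filled points have a DESeq2 adjusted p under 0.05, orange bars are list medians, and dashed lines mark pdk1 (0.16) and pdk2 (-1.64). Medians are -0.56 for PEP and pyruvate enzymes, -0.03 for glycolysis above PEP and -0.83 for the pyrophosphate list.

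Regulators of endosperm filling gave no call in DESeq2 or edgeR over 8 tested IDs, with 1 at an unadjusted p under 0.05 in edgeR, against 10.2% of all tested genes, and a median of -0.26. The list median depended on which WT library was dropped, at -1.06 for replicate 1 and 0.29 for replicate 2. Nkd1 (GRMZM2G129261), an aleurone and endosperm regulator, measured 48.0 and 72.6 CPM in zmknl1 and 127 and 141 CPM in WT (adjusted p = 0.379 in edgeR and 0.178 in DESeq2).

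Of 3 markers of leaf tissue, 2 were at or near 0 and the malic enzyme gene me3 was detected at a low level. The gene pep1 had 0 reads in every library, ssu1 (GRMZM2G098520), for the small subunit of the carbon-fixing enzyme RuBisCO, had 0 and 0 reads in zmknl1 and 8 and 0 in WT, and me3 (GRMZM2G085019) measured 14.5 and 13.7 CPM in zmknl1 and 7.07 and 12.8 CPM in WT. Both zmknl1 libraries lay above both WT libraries for me3, which was called by neither test (log2 fold change 0.51, adjusted p = 0.830 in edgeR and 0.895 in DESeq2). The sum of the 3 was 14.5 and 13.7 CPM in zmknl1, against 7.42 and 12.8 CPM in WT. The part of leaf-type transcripts in the pdk1 values was not tested.

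Markers of the embryo and of the transfer layer at the base of the endosperm differed between the genotypes in DESeq2, which called 1.49% of all tested genes higher and 1.92% lower. Over 7 embryo IDs, of which lec1 had 0 reads in every library, the sum was 272 and 172 CPM in zmknl1 and 2962 and 713 CPM in WT. DESeq2 called 3 of 5 tested embryo IDs lower, a number that fell without WT replicate 1 or zmknl1 replicate 2 and rose without WT replicate 2. Over 9 transfer layer IDs, of which BETL1 had 0 reads throughout, the sum was 228 and 146 CPM in zmknl1 and 27.1 and 45.8 CPM in WT. DESeq2 called 5 of 8 tested transfer layer IDs higher. Fewer were called when WT replicate 1 or either zmknl1 library was left out, and more without WT replicate 2. For both lists, no share over all tested genes was computed for fits without a library, so those counts say little about the lists.

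The aleurone list did not share a direction. Over 6 IDs the sum was 15.2 and 4.59 CPM in zmknl1 and 28.6 and 20.5 CPM in WT. The 1 tested ID, the transcription factor gene vp1 (GRMZM2G133398), was called lower by DESeq2 (adjusted p = 0.0213), a call that was lost without WT replicate 1 or either zmknl1 library. Of those under the low-count filter, c1 and BZ1 had 0 reads in every library. The others, pigment genes named after their values were seen, had reads in zmknl1 alone: c2 had 46 and 1 in zmknl1 and 0 and 0 in WT, a2 had 26 and 10 in zmknl1 and 0 and 0 in WT, and r1 had 105 and 0 in zmknl1 and 0 and 0 in WT. edgeR called 0 in the embryo, transfer layer and aleurone lists, with 4, 7 and 1 at an unadjusted p under 0.05 in that order, against 10.2% of all tested genes. The part of these cell types in the PPDK values was not tested.

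Genes beside pdk1 and pdk2 on their chromosomes did not share a common direction. Among the 5 tested and matched genes on each side of pdk1, 2 lay above WT in every zmknl1 library, 1 lay below and 7 overlapped. Around pdk2, 2 lay above, 2 below and 6 overlapped. These counts are near the 21.9% above and 20.0% below among all tested genes. The 2 IDs below around pdk2 both bear the symbol mbd101 and lie next to it on the same side, at log2 fold changes of -1.61 and -1.54. The other IDs on that side ran from -1.26 to -0.27, and those on the opposite side from -0.19 to 4.49. DESeq2 called 0 of the neighbours of pdk1 and 0 of those of pdk2, and edgeR's median log2 fold changes were 0.40 and -0.23 in the same order.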

How the data were processed

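RNA sequencing libraries of whole kernels (2 zmknl1, 2 WT) were grouped by their titles. The authors used Trimmomatic 0.36 for trimming, HISAT2 2.0.1 for alignment to B73 RefGen_v3 and HTSeq for counting per gene, per the submitters' processing notes. The deposited tables hold raw counts; no source used here states the counting mode or strand setting, so overlapping genes cannot be told apart. Lines for unassigned reads, among them reads in no feature (3.17 to 5.90%) and unaligned reads (11.4 to 12.5%), were left out of library sizes.

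Fits were made in R 4.3.3. Genes were filtered with filterByExpr defaults and scaled with TMM, and zmknl1 was tested against WT with the edgeR 4.0.16 quasi-likelihood test, a two-sided test whose p-values were adjusted by Benjamini and Hochberg's method over every tested gene (threshold 0.05). DESeq2 1.42.0 on the same genes, limma 3.58.1 with voom, other scalings and filters, a replicate block and leaving out each library were alternatives. A self-test on simulated counts was run. The edgeR SEs were derived from fold change and F statistic, while DESeq2 reports its own. Log2 fold changes given with an SE and no named tool are those of edgeR, also where a DESeq2 adjusted p follows. Replicates came from different ears, and the libraries of a genotype were not copies of each other (chi-square per degree of freedom 87.6 in zmknl1 and 421 in WT). Libraries of different genotypes were not compared in this way. Exact permutation tests used scipy 1.17.1.

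Gene names came from RefSeq for Zm-B73-REFERENCE-NAM-5.0, another assembly than that of the counts, which matched 19060 of 39625 IDs. The 10 lists (86 IDs) were matched by symbol, and they overlap. The pyrophosphate and starch lists share sh1, sh2 and bt2, and the PEP and leaf lists share pep1 and me3. Because this table gives no descriptions, symbols for enzymes named in the lists were added by hand, and entries whose synonym belongs to another protein were left out. The members and lists were chosen with earlier results of these data known. Named genes were both members, o2, up to 4 called genes per list or else its 2 most abundant, and the 4 genes most like each member; others are marked in the text. List genes were counted, not tested as sets.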

Additional observations from a re-analysis of the deposited data

How the results depend on the processing

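The pdk2 log2 fold change was negative in all 14 alternatives run, from -1.88 to -1.37. The read ratio of the copies could not change direction in its 5 alternatives, which thus give its range only. Both zmknl1 ratios lay above both WT ratios, and the block returns the same difference by construction. The pdk2 call came from DESeq2 (-1.63) and from fits with the replicate number as a block: edgeR gave -1.63 with an adjusted p of 0.0145 and DESeq2 -1.63 with 1.52e-06. The numbers are not stated to pair ears, and with 2 pairs the correlation of same-numbered deviations across genes, 0.365, cannot show it; the block changed no call for pdk1 or the sum. Without single libraries the pdk2 value ran from -1.88 to -1.37 and passed in no edgeR fit. For pdk1 the range was -0.09 to 0.39, with -0.04 and -0.09 of reversed sign, for the sum -1.43 to -0.94, for the share difference 15.2 to 29.8 percentage points and for the log2 ratio 1.33 to 2.25. Library sizes without the 10 most abundant genes moved the median of all tested genes by 0.22; relative to that median pdk1 stood at 0.17 and pdk2 at -1.63, against 0.15 and -1.64 with TMM. The log2 ratio of pdk2 to starch gene reads was -0.19, from -0.40 to 0.01 without single libraries, the last, of reversed sign, without WT replicate 1.

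edgeR called 4 genes in all with all libraries (1999 at an unadjusted p under 0.05), 715 without a low-count filter, 642 with the block and 19 to 805 without single libraries. DESeq2 called 666 and limma-voom 0, with 2183 at an unadjusted p under 0.05. The cause was not tested. The ratio per coding length was not run, since no lengths were used. The summed gene, the starch ratios, DESeq2 with the block or with libraries left out, and list counts without libraries were added after the data were seen.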
